A study of Mus musculus with 8 samples.

Results

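The genes of insulin and insulin-like growth factor (IGF) signalling were followed in the hippocampus of young and aged mice. The group held Igf1, Igf2, Igf1r, Insr, Irs1, Irs2, Igfbp2, Igfbp3, Igfbp4 and Igfbp5, named as genes by a rule that uses no measured value. The list was nonetheless chosen with earlier results of these data known. Every non-control probe whose accession matched one of these genes was taken, which gave 17 probes of 39429 on the array, for 10 genes of 19751 with a symbol. All 10 genes were measured. RNA came from hand dissected whole hippocampi of untreated wild type C57BL/6J mice aged in the home cage, 4 at 3 months (3M) and 4 at 29 months (29M). No group carried a transgene or a deletion. Per the study's methods, the aged animals were bought from a breeder at an advanced age and then kept for months in the local animal rooms, a history tied to the age groups. Cy3-labelled material of each sample was put on its own array of a whole-genome 1-colour design, on which the brightness of a probe reports the abundance of its transcript.

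IGF1, IGF2 and insulin are secreted hormones that bind receptor tyrosine kinases on the cell surface. The activated receptors phosphorylate the insulin receptor substrates, which recruit PI3 kinase and thereby switch on Akt, mTOR and the MAP kinases and hold FoxO transcription factors out of the nucleus. IGF binding proteins keep the growth factors in the extracellular space and release them locally. In the brain this pathway is known for its part in neuronal growth, adult neurogenesis and memory, and reduced signalling through it lengthens life in several animals.

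Both age groups were present on each of the 3 slides. Between 76.2% and 85.0% of the non-control spots on an array were well above background, no spot was saturated, and any pair of arrays correlated across probes with r between 0.991 and 0.998. Replicate 1 of 3M had the lowest share of bright spots and was the only array that the scanner software marked for evaluation. Values without it are therefore given for several of the results that it changed. The labelled tissue was checked against its markers: all 12 markers of neurons and all 10 of hippocampal subfields, among them Prox1 of the dentate gyrus and Wfs1 of CA1, were well above background on all 8 arrays. Age groups follow the titles of the samples to which the scanner files belong, and a separate table of the series pairs 7 of its 8 columns with another sample's array, a mismatch that was not settled. Values below are normalized log2 intensities, on which 1 unit is a 2-fold difference. Levels of different probes cannot be set against each other. Separate mice are implied by the series' n of 4 and not by a label of each animal. The p-values therefore set the difference between groups against the spread between these samples, which may not be that between mice. In bulk tissue, fewer cells of a type and less RNA per cell cannot be told apart.

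The first question was whether any gene of the group differed between 3M and 29M. None passed both thresholds, which were a limma adjusted p under 0.1 over all probes and a log2 change of at least 0.5 in size (1.414-fold). The count was 0 of 17 probes in either direction, where 2.06% of all 39408 tested probes were called (1.25% higher and 0.809% lower in 29M). At an unadjusted limma p under 0.05 there were 3 probes, while 16.9% of all probes passed that level. Higher in 29M among them were Igf1r and 1 of 3 probes of Insr (8.23% of all probes), and lower was Irs2 (8.68% of all probes). The lowest adjusted p was that of Igf1r. The 4 values of 3M and the 4 of 29M did not overlap for 3 of 17 probes, against 11.1% of all probes, and by 1 probe a gene for 2 of 10 genes, against 11.6% of all genes. Above 0 were 13 of the 17 probes, against 50.8% of all probes, and this counts several probes of the same gene. By 1 probe a gene it was 7 of 10 genes, against 52.9% of all genes. With 1 probe a gene the median log2 change was 0.10 over the 10 genes and 0.01 over all genes, and the median size of a change was 0.19 and 0.12. The 95% intervals of 16 of the 17 probes lay within a 2-fold difference in both directions, while smaller differences were mostly not resolved with 4 arrays a group. The exception was a probe of Insr with scattered values.

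**Figure D1:**
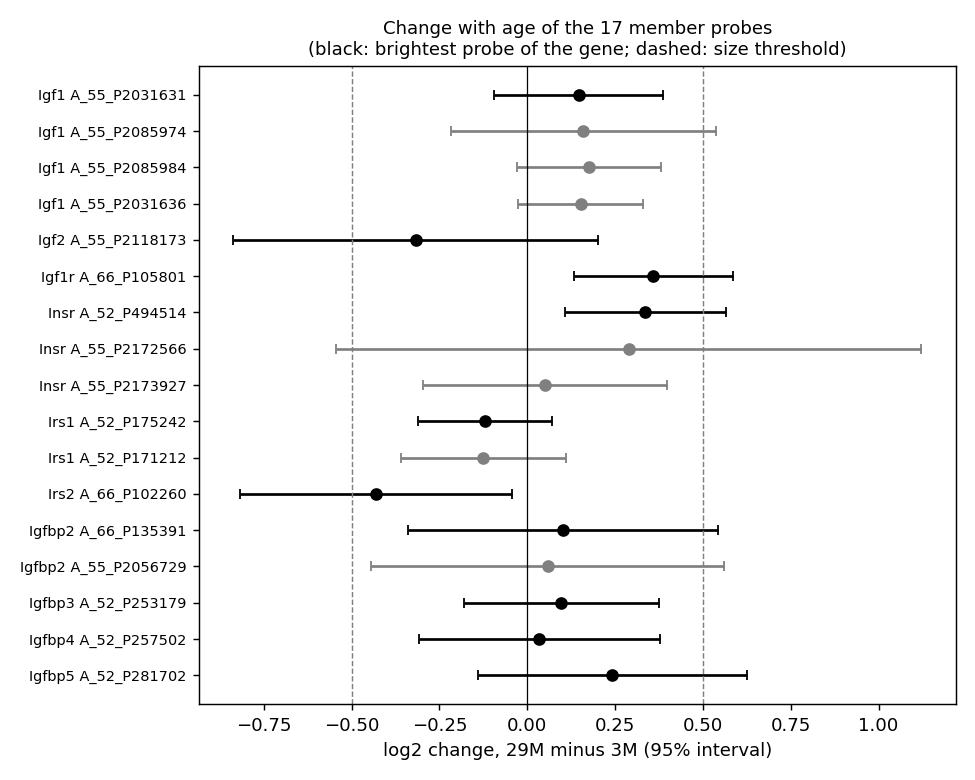
Log2 change between 29M and 3M (29M minus 3M, x axis) of each of the 17 probes (y axis), with bars for the 95% interval of the limma fit on 4 against 4 arrays, black for the brightest probe of a gene and grey for its other probes. The dashed lines mark the size threshold of 0.5, which no point reaches, and the intervals leave out 0 for Igf1r, Irs2 and 1 probe of Insr.

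The receptors had the largest positive differences. Igf1r encodes the receptor that carries most signals of both IGFs. Its probe (A_66_P105801, NM_010513, chromosome 7) read 13.51, 13.54, 13.78 and 13.41 on replicates 1 to 4 of 3M and 14.06, 13.86, 13.94 and 13.81 on those of 29M. Every 29M array was above every 3M array, with a gap of 0.04 between the groups. The log2 difference was 0.36 (SE 0.10, limma adjusted p 0.123), or 1.28-fold with a 95% interval of 1.10 to 1.50. It had the same sign on each slide, with 0.37, 0.32 and 0.46 on slides 1, 2 and 3. By 1 probe a gene, the sign was shared by the 3 slides for 5 of the 10 members and for 45.2% of all genes. The difference was smaller, 0.22 (limma adjusted p 0.315), when processed signals were scaled to the 75th percentile of each array. Its adjusted p was under 0.1 in 4 of 19 alternative settings and ranged from 0.0416 to 0.315, but the difference never reached the size threshold in any of them, with a highest value of 0.43.

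Insr encodes the insulin receptor and had 3 probes that differed in size. The brightest (A_52_P494514, NM_010568, chromosome 8) read 11.08, 10.94, 11.11 and 10.83 in 3M and 11.24, 11.54, 11.24 and 11.28 in 29M. Here too the groups were apart, by 0.13, and replicate 2 of 29M stood well above the other aged samples. The log2 difference was 0.34 (SE 0.10, limma adjusted p 0.148), which is 1.26-fold with a 95% interval of 1.08 to 1.48. On the slides it was 0.18, 0.60 and 0.28, and without replicate 2 of 29M it was 0.26 (limma adjusted p 0.297, range over all alternatives 0.0483 to 0.574). The mean over all 3 probes gave 0.23. On the second probe (A_55_P2172566) the values were 7.89, 9.55, 9.57 and 9.20 in 3M and 9.62, 9.73, 8.72 and 9.30 in 29M. Replicate 1 of 3M was far below the others on this probe, the groups overlapped, and the difference of 0.29 (SE 0.37) was smaller than its error. The dimmest probe (A_55_P2173927), well above background on 3 of 4 arrays of 3M, gave 0.05 (SE 0.16).

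The insulin receptor substrates were lower in mean level at 29 months, with no call. Irs2, the docking protein through which insulin and IGF signals reach PI3 kinase in many tissues, brain included, had 1 probe (A_66_P102260, NM_001081212, chromosome 8). It read 12.29, 13.07, 12.66 and 12.68 in 3M and 12.51, 12.40, 12.04 and 12.04 in 29M. Replicate 1 of 3M fell among the aged samples and the other young samples lay above them all. The log2 difference was -0.43 (SE 0.17, limma adjusted p 0.247), so that 3M was 1.35-fold above 29M, and it was -0.25, -0.68 and -0.16 on slides 1, 2 and 3. Without replicate 1 of 3M, Irs2 was the only one of the 17 probes to pass both thresholds, at -0.55 (limma adjusted p 0.0911), and without replicate 2 of 3M the difference was -0.30. Over 19 alternatives the adjusted p of Irs2 ranged from 0.0911 to 0.460. Irs1, the related docking protein, read 12.05, 12.18, 12.27 and 12.28 in 3M and 11.97, 12.14, 12.13 and 12.06 in 29M on its brighter probe (A_52_P175242, NM_010570, chromosome 1). The groups overlapped, and the difference was -0.12 (SE 0.09) on this probe and -0.12 (SE 0.11) on the other (A_52_P171212). Its sign varied by slide on the brighter probe, with 0.04, -0.04 and -0.30.

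**Figure D2:**
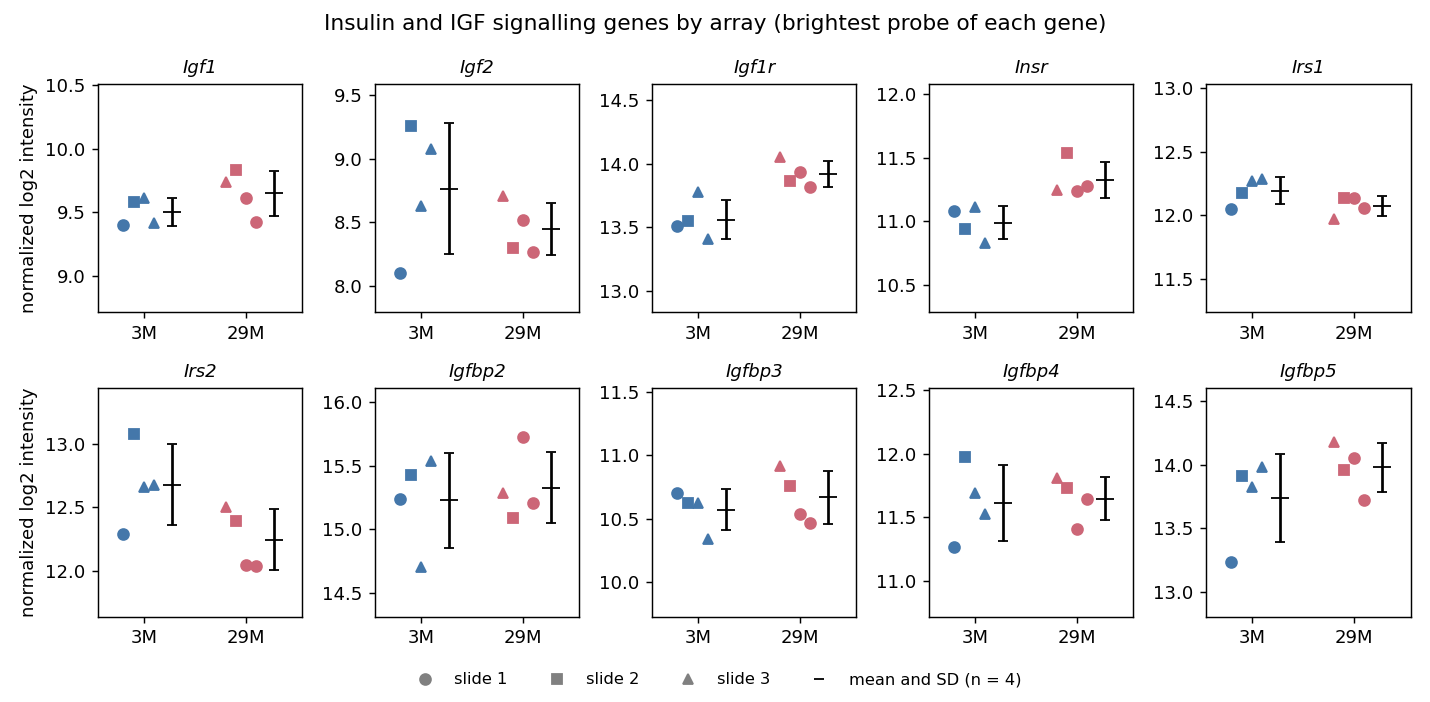
Normalized log2 intensity (y axis) of the brightest probe of each of the 10 genes on the 4 arrays of 3M (blue) and 29M (red), with the slide as the symbol and the mean with its SD beside the points. All panels span the same range of log2 units at different levels. The groups are apart for Igf1r and Insr and overlap for the other 8 genes, and replicate 1 of 3M is the lowest young sample for Igf1, Igf2, Irs1, Irs2, Igfbp4 and Igfbp5.

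Of the ligands, Igf1, the growth hormone dependent factor that brain cells also make locally, had 4 probes with near equal differences of 0.15 to 0.18. The brightest (A_55_P2031631, NM_010512, chromosome 10) read 9.40, 9.58, 9.61 and 9.41 in 3M and 9.74, 9.83, 9.61 and 9.42 in 29M. Replicates 1 and 2 of 29M were above all young samples and the other aged ones lay inside the young range. The log2 difference was 0.15 (SE 0.11, limma adjusted p 0.531). Its sign was the same on each slide (0.11, 0.25 and 0.22), as for 45.2% of all genes. Only the dimmest Igf1 probe (A_55_P2031636) had groups that did not overlap, by a gap of 0.03. There, 3M read 8.58, 8.59, 8.66 and 8.64 and 29M read 8.80, 8.89, 8.69 and 8.69, a difference of 0.15 (SE 0.08, limma adjusted p 0.370). The probes report 1 transcript accession and share the 8 samples, so they are no replicates of each other.

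Igf2, a growth factor made in the adult brain mainly by the choroid plexus and meninges, scattered more than Igf1. Its probe (A_55_P2118173, NM_010514, chromosome 7) read 8.10, 9.26, 8.63 and 9.08 in 3M and 8.70, 8.30, 8.52 and 8.27 in 29M. The young samples ran from below all aged samples to above them all. The log2 difference was -0.32 (SE 0.23, limma adjusted p 0.529), with a 95% interval from -0.84 to 0.20. It turned with the slide, at 0.29, -0.96 and -0.15. Without replicate 1 of 3M it was -0.53 (limma adjusted p 0.121) and without replicate 2 of 3M -0.15 (limma adjusted p 0.801), the lowest and highest of its 19 alternatives.

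No IGF binding protein of the group was called, and for 3 of the 4 genes the difference was smaller than its standard error. Igfbp5, which is made by neurons and glia and binds to extracellular matrix, read 13.23, 13.91, 13.83 and 13.98 in 3M and 14.18, 13.96, 14.05 and 13.72 in 29M (A_52_P281702, NM_010518, chromosome 1). Replicate 1 of 3M was the lowest sample and the groups overlapped. The difference of 0.24 (SE 0.17, limma adjusted p 0.516) became 0.08 without that array, the lowest of its 19 alternatives. Igfbp4, an inhibitor of IGF action that is cut by the protease PAPP-A, read 11.26, 11.98, 11.69 and 11.52 in 3M and 11.81, 11.73, 11.41 and 11.64 in 29M (A_52_P257502, NM_010517, chromosome 11). All aged samples lay within the young range. The difference was 0.03 (SE 0.15) and turned to -0.08 without replicate 1 of 3M. Igfbp3, the main carrier of IGFs in blood, read 10.70, 10.62, 10.62 and 10.34 in 3M and 10.92, 10.76, 10.53 and 10.47 in 29M (A_52_P253179, NM_008343, chromosome 11). Its groups overlapped, with a difference of 0.10 (SE 0.12) that was -0.20 on slide 1 and 0.44 on slide 3.

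Igfbp2, the binding protein known to be abundant in cerebrospinal fluid, was measured by 2 probes (A_66_P135391 and A_55_P2056729, NM_008342, chromosome 1). The brighter read 15.24, 15.43, 14.70 and 15.54 in 3M and 15.29, 15.09, 15.73 and 15.21 in 29M. Replicate 3 of 3M was the lowest sample and replicate 3 of 29M the highest, and between them the groups were mixed. The difference was 0.10 (SE 0.20, limma adjusted p 0.842) on this probe and 0.06 (SE 0.22) on the other. It turned to -0.07 without replicate 3 of 3M and to -0.03 without replicate 3 of 29M. The summed level of 12 choroid plexus markers, all well above background on all 8 arrays, was also lowest in replicate 3 of 3M, at 18.44 against 18.82, 18.96 and 18.97 in the other young samples and 18.60 to 18.91 in 29M. For 8 ependymal markers it was 14.15 in that array, 15.17 to 15.72 in the other young samples and 14.92 to 15.08 in 29M. For 12 markers of the meninges the same array was the highest of all, at 18.82. None of the markers in these 3 lists was called, and the part of dissected choroid plexus or ventricle wall in the Igfbp2 values was not tested.

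**Figure D3:**
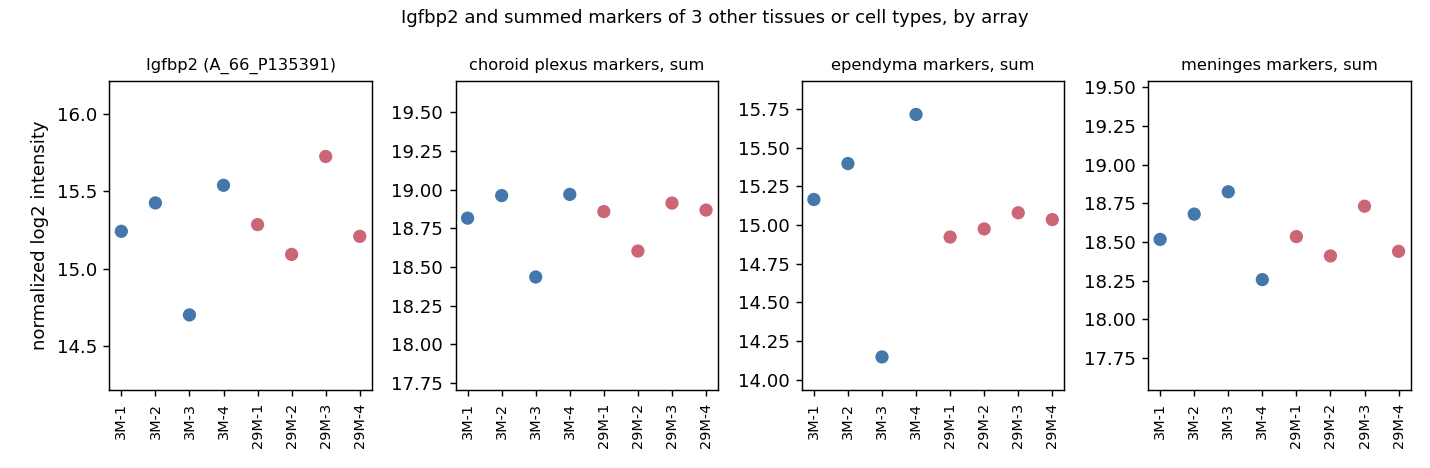
Normalized log2 intensity of Igfbp2 (left panel) and the log2 of summed marker intensities of the choroid plexus, the ependyma and the meninges (y axes) on each array (x axis, 3M in blue and 29M in red). Replicate 3 of 3M is lowest for Igfbp2 (14.70), the choroid plexus (18.44) and the ependyma (14.15), and highest for the meninges (18.82).

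The members were next placed among the rest of their pathway, as 84 further genes in 12 roles. All 84 were measured, and 81 were well above background on every array of at least 1 age group. By 1 probe a gene, Socs3 and Slc2a4 were higher and Igfbpl1 was lower in 29M, which is 3 of 84 genes, where 2.26% of all 19742 genes were called (1.58% higher and 0.689% lower). None of 38 further probes of the 84 genes was called in limma. The list had 43 genes above 0 (52.9% of all genes were) and 41 below it, and a median change of 0.00. At an unadjusted p under 0.05 it had 18 genes (21.4%, against 17.1% of all genes), 8 of them higher and 10 lower, where 9.43% and 7.65% of all genes were.

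Among the negative regulators, Socs3 rose. It is induced by cytokine signals and blocks the insulin receptor and its substrates. It read 10.56, 10.22, 10.44 and 9.90 in 3M and 11.53, 11.72, 11.47 and 11.07 in 29M. Every aged sample was above every young one. On the log2 scale the rise was 1.17 (SE 0.17) with a limma adjusted p of 0.0151. Its level in 29M was 2.25 times that in 3M (95% interval 1.72 to 2.93), and the change was 0.72, 1.49 and 1.36 on the slides. The other 13 genes of this role were not called, and Socs1 and Socs2, its relatives, had differences of 0.18 and -0.04. Inppl1, a phosphatase that degrades the lipid product of PI3 kinase, had the lowest value of the role at -0.68 (SE 0.21, limma adjusted p 0.148). It passed both thresholds in 2 of 19 alternatives, over which the limma adjusted p ran from 0.0600 to 0.302. Its 4 young samples lay between 13.63 and 13.73, and the aged ones were spread from 12.45 to 13.56 below them.

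Slc2a4, the glucose transporter GLUT4 that insulin moves to the cell surface, also rose. It read 9.69, 9.53, 9.31 and 9.50 in 3M and 10.32, 10.24, 10.38 and 11.01 in 29M. The groups were separate, and replicate 4 of 29M was the highest. The change was 0.98 (SE 0.17, limma adjusted p 0.0267), or 1.97-fold, and it was at least 0.71 on each slide. The glucose transporters of the blood-brain barrier and of neurons, Slc2a1 and Slc2a3, differed by 0.09 (SE 0.09) and 0.01 (SE 0.08). Socs3 and Slc2a4 passed both thresholds in all 19 alternative settings, with adjusted p of at most 0.0626 and 0.0869.

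Igfbpl1, a secreted relative of the binding proteins, fell. It read 10.06, 10.43, 9.21 and 11.12 in 3M and 8.33, 8.16, 8.83 and 9.32 in 29M. The groups overlapped, since replicate 3 of 3M was below replicate 4 of 29M. Among the young samples Igfbpl1 had the same order as the summed markers of the ependyma and choroid plexus given above, lowest in replicate 3 and highest in replicate 4. The order was not shared among the aged samples, where Igfbpl1 was highest in replicate 4 and both sums were highest in replicate 3 (15.08 and 18.91). The median change was -0.08 for the ependymal markers and 0.17 for those of the choroid plexus. In 3M the summed markers of the oligodendrocyte precursors had the order of Igfbpl1 too. Those of the meninges were highest in replicate 3 and lowest in replicate 4 of 3M (18.82 and 18.26). The part of any of these tissues or cells in the Igfbpl1 values was not tested. Without replicate 3 of 3M the change of Igfbpl1 was -1.87 (limma adjusted p 0.0477). Over all arrays the change was -1.55 (SE 0.39, limma adjusted p 0.0904), so that 3M was 2.92-fold above 29M, and it was -0.99, -2.27 and -1.83 on the slides. Its call was lost in 12 of 19 alternatives, in which the change stayed negative and the adjusted p of all 19 ran from 0.0155 to 0.224. It was not called with slide as a fixed block (-1.65, limma adjusted p 0.142), with the trend and robust prior, in either fit on processed signals or at an adjusted p of 0.05. It was also lost in those that left out replicate 2 or 4 of 3M (-1.47 and -1.24) or any 1 of the aged arrays (between -1.38 and -1.76). The classical member of that role, Igfbp1, a binding protein of the liver whose gene insulin represses, read 7.55, 7.20, 7.38 and 7.25 in 3M and 6.74, 6.87, 7.03 and 6.74 in 29M. The groups did not overlap, and the difference of -0.50 (SE 0.11, limma adjusted p 0.0568) was just short of the size threshold. It passed both thresholds in 6 of 19 alternatives. Igfbp6 and Igfbp7 were above 0 by 0.37 (SE 0.23) and 0.36 (SE 0.41).

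**Figure D4:**
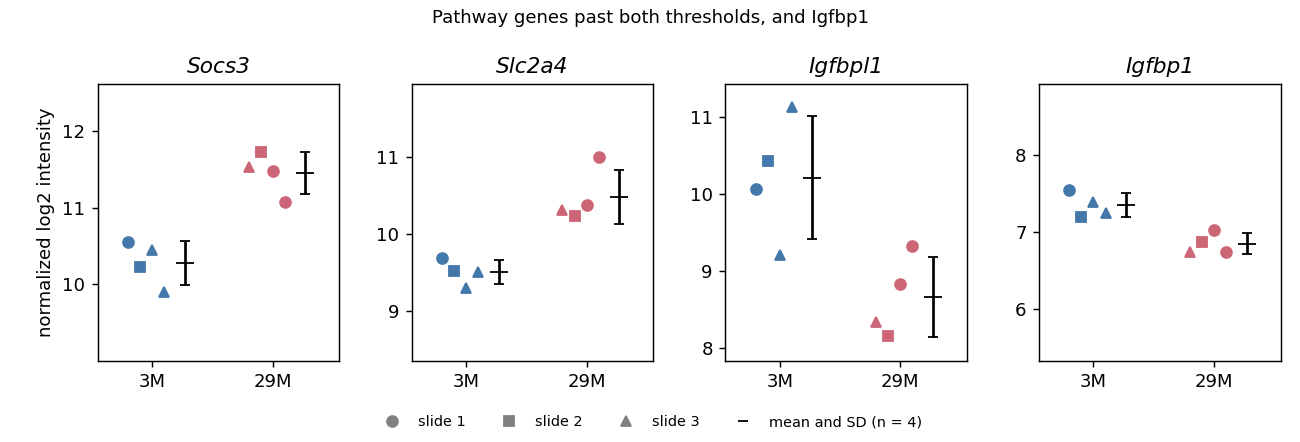
Normalized log2 intensity (y axis) of the 3 called pathway genes and of Igfbp1 on the 4 arrays of 3M (blue) and 29M (red), with the slide as the symbol and the mean with its SD beside the points. The groups are separate for Socs3, Slc2a4 and Igfbp1 and overlap for Igfbpl1.

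In the remaining roles no gene was called in the fit with age alone. Of the insulin genes, Ins1 had a difference of 0.10 (SE 0.28), with young values from 9.21 to 10.69, and Ins2 one of -0.07 (SE 0.13). Both differences were smaller than their errors. Of the receptors, Igf2r, which clears IGF2 from the cell surface, had a difference of -0.05 (SE 0.08), and Insrr one of 0.33 (SE 0.25). The 5 proteases of binding proteins and their inhibitors ranged from -0.36 to 0.07.

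Downstream of the receptors, Pik3r1, the regulatory subunit of PI3 kinase, had the largest value without a call. It read 9.03, 9.71, 9.77 and 8.74 in 3M and 10.22, 10.23, 9.85 and 10.30 in 29M. The groups were separate by less than the spread within 3M. The difference was 0.84 (SE 0.23, limma adjusted p 0.116), and it passed both thresholds in 2 of 19 alternatives, 1 of them the fit on bright probes alone. The other 9 genes of PI3 kinase and Akt lay between -0.20 and 0.17. Gab1, a docking protein, had a difference of 0.49 (SE 0.16, limma adjusted p 0.179), and the other 9 adaptors lay between -0.15 and 0.14. With slide as a fixed block Gab1 passed both thresholds, at 0.61 (limma adjusted p 0.0621, range over all alternatives 0.0621 to 0.365). Without replicate 1 of 3M, its lowest young sample, the Gab1 difference was 0.36 (limma adjusted p 0.191), the smallest of all alternatives.

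By 1 probe a gene, the 6 genes of the FoxO and Gsk3 role, which Akt restrains at the protein level, lay below 0 with a median of -0.18, and none was called. The sign was not shared by all probes, since further bright probes of Foxo1 and Gsk3b gave 0.06 and 0.08. Foxo4, which had the lowest value, was not well above background on all arrays of either group. Of 15 genes of the mTOR arm, Eif4ebp2, a repressor of translation that mTOR releases, was lowest at -0.53 (SE 0.19, limma adjusted p 0.204), with replicate 1 of 29M inside the young range. Without that array Eif4ebp2 passed both thresholds, at -0.72 (limma adjusted p 0.0822), as in no other of its 19 alternatives. Deptor had the lowest adjusted p of that arm, with a difference of 0.35 (SE 0.09, limma adjusted p 0.0981) that was short of the size threshold. Its groups did not overlap, as for 11.6% of all genes. The 8 genes of the Ras and MAPK arm ranged from -0.09 to 0.26 and the 4 of the growth hormone axis, which governs Igf1 in the liver, from -0.07 to 0.30.

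**Figure D5:**
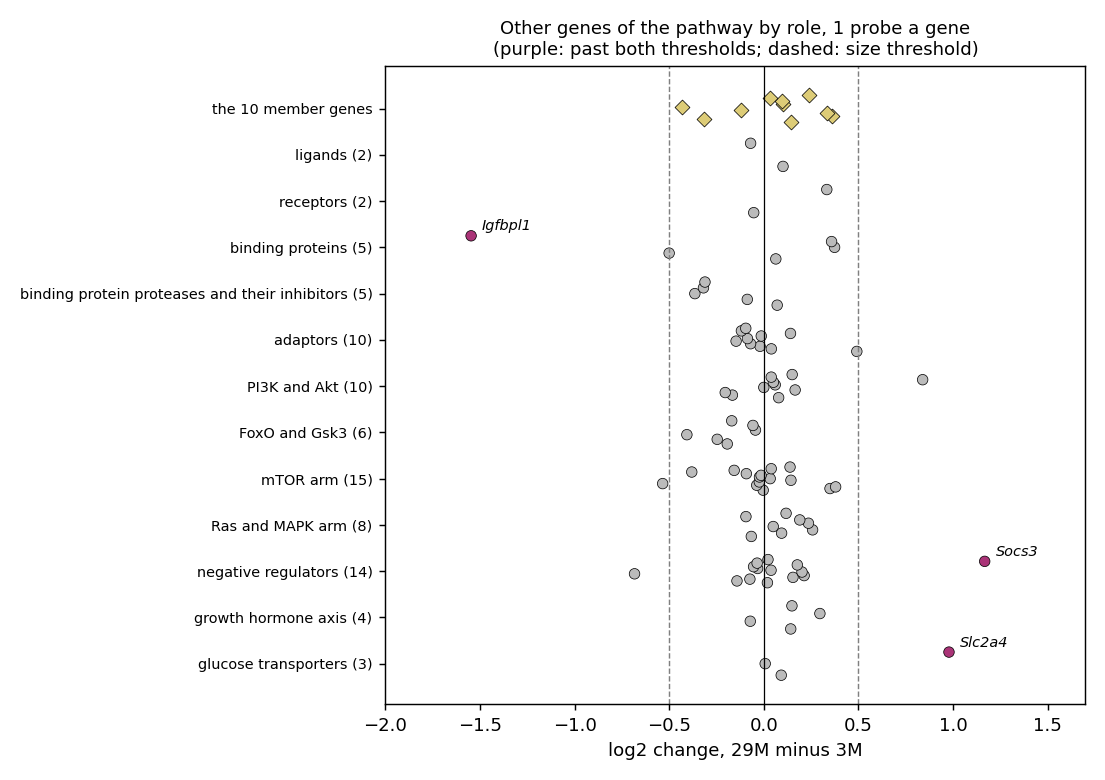
Log2 change between 29M and 3M (29M minus 3M, x axis) of the 10 member genes (yellow diamonds) and of 84 other pathway genes by role (y axis, number of genes in parentheses), 1 point a gene with vertical scatter only for legibility, and purple where both thresholds were passed. The members lie between -0.43 and 0.36, inside the dashed size threshold, while Socs3 (1.17), Slc2a4 (0.98) and Igfbpl1 (-1.55) lie outside it.

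Some markers of glia and immune cells were called in the same samples, where 2.26% of all genes were called by 1 probe a gene. Of 12 microglial markers, 11 were above 0, with a median of 0.35, and C1qa, C1qb and Trem2 were called higher. Their summed level was 18.46 to 18.66 in 3M and 18.67 to 18.76 in 29M, with no overlap. Of 10 astrocyte markers 6 were above 0 and Gfap was called, with a summed level of 18.65 to 18.96 in 3M and 18.80 to 18.96 in 29M. Gpr17 of the oligodendrocyte precursors was called lower (-0.99), the only call among 8 markers of that list. Of these 8 markers 4 were above 0, with a median of -0.02. Their summed level overlapped, at 15.04 to 15.46 in 3M and 14.95 to 15.33 in 29M. Cd3d and Cd8a were called higher (0.96 and 0.71) among 9 measured markers of T and B cells, of which 6 were above 0. The summed level of these 9 overlapped between the groups, at 14.34 to 14.48 in 3M and 14.25 to 14.59 in 29M. The summed levels of the neuronal and subfield markers overlapped between the groups, at 19.91 to 19.99 and 17.21 to 17.39 in 3M and 19.86 to 19.99 and 17.18 to 17.39 in 29M. The part of these cell types in the values of the members and of Socs3, Slc2a4 and Igfbpl1 was not tested.

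For the members at either end of the range that had a promoter entry, the sequence upstream of the start is shown for reference, from RefSeq on GRCm38.p6. Each run is the 120 bases before an annotated start, 5′ to 3′ on the strand of the gene, with GC boxes (GGGCGG or its reverse complement CCGCCC, a letter match to the element that Sp1 binds) in capitals.
Igf1r, chr7:67952137-67952256, plus strand: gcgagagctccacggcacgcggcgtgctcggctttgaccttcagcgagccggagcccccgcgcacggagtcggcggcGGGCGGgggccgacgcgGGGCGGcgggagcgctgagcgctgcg
Irs2, chr8:11008930-11009049, minus strand: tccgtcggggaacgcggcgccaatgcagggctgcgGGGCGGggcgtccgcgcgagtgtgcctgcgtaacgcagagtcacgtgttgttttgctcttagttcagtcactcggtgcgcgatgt
Over the 250 bases before the start, 77.6% of the letters were G or C for Igf1r and 72.8% for Irs2, where the median of 32851 promoters was 52.4%. A GC box was in 6 of the 13 promoters found for 9 of the 10 members and in 32.7% of all promoters. The FoxO letters GTAAACA were in none of the 13 and in 3.17% of all. No binding was measured here.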

How the data were processed

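For each of the 8 arrays the authors deposited intensities on a linear scale, made per the file headers with Agilent Feature Extraction 10.7.3.1, a version other than the one in the study's methods. The mean spot intensity was not in the files used here, and the median took its place. Control and outlier spots (127 to 190 an array) were left out. Variance stabilising normalization was fitted by an implementation in R 4.3.3 made for this work (trimming quantile 0.9, 7 iterations), and probes with 10 spots were averaged. On its generalized log2 scale, changes of dim probes are understated. In limma 3.58.1 a model with age alone was fitted to 39408 probes with at least 3 usable arrays a group, with Benjamini-Hochberg adjustment and the thresholds of the study's methods. On data simulated for this comparison (39429 probes, 200 changed 2- or 4-fold), 100% of the changed probes were recovered and 8.26% of calls were false. The changed probes were drawn from brighter ones and no slide difference was simulated. The recovery of changes below 2-fold, such as those of the members, was not examined.

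Probes were named from accessions through RefSeq (GRCm38.p6), which named 66.1% of them. The arrays were designed on another build, so no probe positions are given. Each gene was represented by its brightest probe over the 8 arrays. The members, the pathway and marker lists and the tests were chosen with earlier results of these data known. Named pathway genes are those called and the 4 largest rises and 4 largest falls among bright probes; other pathway genes and markers given with values were chosen after their values were seen. The deposited table of the series held mean local background in all 8 columns, 7 of them of another sample's array, and was not used. In 4 of the 7 that array was of the other age group. Whether the table or the assignment of scanner files to samples is at fault was not settled, and groups follow the titles of the samples that the files belong to.

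Alternatives were 3 other normalizations, outlier spots kept, bright probes alone, blocks for slide or replicate number, array weights, a robust prior with a trend, an adjusted p of 0.05, the mean over a gene's probes, and each array left out in turn.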

Additional observations from a re-analysis of the deposited data

Results flagged for a closer look

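The brightest probe of Insr (A_52_P494514) had 1 aged sample far from the others. Replicate 2 of 29M read 11.54, while the other 3 arrays of 29M lay between 11.24 and 11.28, so that the gap was 0.859 of the range of the group. Among 50 groups of 4 values examined this was the only one past Dixon's limit at the 95% level, where chance gives 1 in 20 groups, or 2.5. Without that array the log2 difference of Insr was 0.26 in place of 0.34.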

How the results depend on the processing

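No member probe was called higher in 29M in any setting, and none was called lower except Irs2 without replicate 1 of 3M, so that leaving out arrays gave 0 to 1 lower member probes. The signs of Igfbp2 and Igfbp4 were not settled: with array weights they were -0.034 and -0.047, and with single arrays left out they ran from -0.072 to 0.205 and from -0.077 to 0.157. Igfbp2 turned negative without replicate 3 of 3M or of 29M (-0.032), and Igfbp4 without replicate 1 of 3M or of 29M (-0.021). The other 8 members kept their sign in every alternative fit. The median change of the members was 0.20, 0.01 and 0.21 within slides 1, 2 and 3, against 0.10 over all arrays. The counts over all probes, 491 higher and 319 lower, were less stable. They became 842 and 662 with array weights, 308 and 179 at an adjusted p of 0.05, and the lower count became 171 with the model on processed signals. Leaving out arrays gave 268 to 844 higher and 131 to 624 lower probes, the highest without replicate 1 and the lowest without replicate 2 of 3M. When replicate 1 of 29M was dropped they were 269 and 139, and when replicate 2 of 29M was dropped, 282 and 166. The higher count was 307 without replicate 3 of 3M, and the lower count 157 without replicate 4 of 29M. Lower calls in the pathway list, 1 in the fit reported, were 2 with slide as a random block, 0 with the trend and robust prior, 3 with array weights, 0 at an adjusted p of 0.05 and 0 to 2 without single arrays. Without replicate 1 of 3M there were 2, Igfbpl1 and another gene that was not identified. The cause was not tested.

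Replicate numbers did not pair the samples. Deviations of same-numbered samples from their group means correlated with r of -0.24, 0.21, -0.23 and 0.07, and 1 of the 4 young samples correlated best with its own number. With the replicate number as a block, 266 probes were higher and 145 lower, and 0 member probes and 0 lower pathway genes were called.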

Other observations

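For each member, the genes whose brightest probe varied most like it across samples within the age groups were listed, as a description over 8 arrays and 15919 genes, among which high values arise from the number of genes compared. The measure was Pearson's r after subtraction of the mean of each age group. For Igf1r these were Klc4, a kinesin light chain (r 0.979), the neuronal tubulin Tubb3 (0.976) and Pcid2 (0.966). For Insr they were Gtf2e2 (0.993), Wdr77 (0.985) and Cntnap5b (0.967), and for Irs2 the kinase Src (0.983), Uncx (0.977) and Cdc42bpb (0.975). Igf1 varied most like Wnt7b (0.979), Ikbkg (0.972) and Fam180a (0.970), and Igf2 most like Ldb1 (0.988), Nudt5 (0.972) and Dhrs11 (0.972). Igfbp2 varied most like Gpx8 (0.993), Gata6 (0.991) and Lgals1 (0.986), and Igfbp5 most like Slc25a23 (0.995), Arhgef19 (0.981) and Stk24 (0.981). For Irs1 the list was Tiparp (0.947), Gad2 (0.945) and Akr1b10 (0.943), for Igfbp3 Ipo7 (0.974), Chrna5 (0.956) and Ocel1 (0.954), and for Igfbp4 Secisbp2l (0.986), Gfra4 (0.983) and Lrrn4 (0.982).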
